A study of Oryza sativa with 30 samples.

Results

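Shoot apices of the rice cultivar Taichung 65 (T65, Oryza sativa, temperate japonica) were compared after 4 short days and before any short day. The comparison used the 3 count libraries of T65 day 4 and the 3 of T65 day 0, which are 6 of the 23 count libraries of the series, chosen by their cultivar and day labels alone. T65 day 4 plants had been moved to 10 h light and 14 h dark, and T65 day 0 plants were kept in 16 h light and 8 h dark. Both came from seed-grown plants that were 6 weeks old at the shift, with day and night temperatures of 28 and 24 °C and no mutation or transgene in the labels. The cultivar Nipponbare (NB), sampled on the same days, gave 3 libraries at day 4 and 3 at day 0 and is used here to test where T65 differed. RNA was sequenced from apices cut out under a microscope, and the labels do not say whether the libraries of a group came from separate plants, so the p-values measure the spread between libraries, which may be technical in part.

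Rice is a short-day plant. Leaves read the length of the day through phytochromes and the circadian clock, and short days let them make florigen, a protein such as Hd3a that travels to the apex. There florigen joins 14-3-3 proteins and the bZIP factor OsFD1, and this complex switches on MADS-box genes of the APETALA1 and FRUITFULL family, after which the meristem stops making leaves and forms a panicle. PINE1, a zinc-finger factor, restrains internode elongation in the vegetative apex.

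The T65 day 4 libraries held 14.3 to 17.7 M counts in genes and the T65 day 0 libraries 14.4 to 23.8 M, where M is 1e+06. The files name genes by MSU locus and carry no coordinates, and no build is named in the labels or files read here. The pairing of PINE1, OsFD1, FTL1, RCN2, Ehd1, SNB and LHCB-b with their loci comes from earlier work on these data and could not be checked in the gene table used for the other symbols. Levels are CPM, counts scaled to a library of 1 M on TMM-adjusted library sizes, and they are not divided by gene length, so they are not compared between genes. Reads aligned to several places are counted apart from reads assigned to genes, and their share is given relative to the assigned reads. It was 6.19% in T65 day 4 replicate 1 and 10.1 to 10.3% in the other T65 day 4 replicates. In T65 day 0 it was 5.76 and 6.56% in replicates 3 and 2 and 9.79% in replicate 1. The first principal component of the 6 libraries (37.8% of the variance) followed this share and not the day. The shoot meristem genes OSH1 (141 to 206 CPM at T65 day 4, 143 to 185 CPM at T65 day 0) and OSH15 (130.0 to 175 CPM at T65 day 4, 122 to 149 CPM at T65 day 0), which keep meristem cells undifferentiated, were well covered. Of the 13 flower organ genes 9 were too low to be tested, with OsMADS3 and OsMADS13 at 0 counts at T65 day 4 and at 1 and 0 counts at T65 day 0. Others of this list were covered, with OsMADS2 at 31.7 to 35.2 CPM, OsMADS16 at 41.2 to 46.4 CPM and DL at 52.1 to 66.0 CPM at T65 day 4, against 29.5 to 36.4, 23.3 to 41.3 and 40.7 to 63.7 CPM at T65 day 0, in the same order. In whole apices, fewer cells of a type and less RNA per cell cannot be told apart.

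After 4 short days few genes had changed in T65. Of 22839 genes tested, 34 passed the edgeR quasi-likelihood test with a Benjamini-Hochberg adjusted p under 0.05, or 0.149% of all genes tested. Of these 26 rose (0.114%) and 8 fell (0.0350%). Log2 fold changes of the genes that rose ran from 0.48 to 2.89 with a median of 1.07, and those of the genes that fell ran from -1.77 to -0.42 with a median of -0.76. At least a 2-fold difference was seen in 16 of the genes that rose and 3 of those that fell. The median log2 fold change of all genes tested was 0.003, and 2047 genes had an unadjusted p under 0.05.

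In each of the 34 genes the T65 day 4 libraries did not overlap the T65 day 0 libraries. This alone was common, at 20.2% of all genes tested, with 2517 genes higher and 2096 (9.18%) lower without overlap. For these 34 genes the direction within the lower and within the higher multi-aligned share follows from the lack of overlap and is no separate check. With this share as a term in the model 31 genes passed, 27 of them among the 34. The count fell when any library was left out, to 21, 14 and 17 genes without T65 day 4 replicate 1, 2 and 3 and to 17, 16 and 21 genes without T65 day 0 replicate 1, 2 and 3. Of the 34, 9 passed in every one of these 6 fits.

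Among genes with a usable name, the circadian clock was the only list of 22 with members that passed. The lists were chosen with earlier results of these data known, so the counts by list are a description and no independent test. The clock is a loop of genes that repress each other at different hours of the day, and it lets plants time flowering by day length. Of 8 clock genes tested 3 rose and none fell, against 0.114% and 0.0350% of all genes tested, with a median log2 fold change of 0.19 over the list. A further 45 loci had been entered in the lists under names that could not be checked and were left out of these counts. Of these, 2 rose, namely 1 of the 5 entered for the clock (LOC_Os11g34460) and the 1 entered for sugar starvation.

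PRR95 (LOC_Os09g36220), a pseudo-response regulator that represses morning genes, had 189, 162 and 144 CPM in the T65 day 4 libraries, against 83.2, 60.5 and 80.1 CPM in the T65 day 0 libraries. The lowest day 4 library lay well above the highest day 0 library. The log2 fold change was 1.14 ± 0.18 (SE) with an adjusted p of 0.00548 by edgeR, which became 0.054 without T65 day 0 replicate 2. Within the lower multi-aligned share the ratio of day 4 to day 0 was 2.69, and within the higher share 1.84.

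GI (LOC_Os01g08700), the rice GIGANTEA, which links the clock to the flowering pathway, had 364, 385 and 367 CPM in the T65 day 4 libraries, against 214, 217 and 229.8 CPM in the T65 day 0 libraries. Each group was tight and the gap between them was wide. The log2 fold change was 0.75 ± 0.12 with an adjusted p of 0.00814 by edgeR. The adjusted p was 0.0618 without T65 day 4 replicate 2, 0.0622 without T65 day 0 replicate 1 and 0.0558 without T65 day 0 replicate 2, while the log2 fold change stayed between 0.73 and 0.79 over the 6 fits that leave out 1 library.

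PRR73 (LOC_Os03g17570), another pseudo-response regulator, had 301, 328 and 303 CPM in the T65 day 4 libraries, against 225, 208 and 232 CPM in the T65 day 0 libraries. Its rise was the smallest of the 3, at a log2 fold change of 0.49 ± 0.08 (adjusted p = 0.00814 by edgeR). The call was lost without T65 day 4 replicate 2 (adjusted p = 0.0914) and without T65 day 0 replicate 2 (adjusted p = 0.0697).

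The other clock genes did not pass. PRR37 (LOC_Os07g49460), the closest relative of PRR73 in rice and a regulator of heading date, had 232, 247 and 204 CPM at T65 day 4 and 169, 175 and 174 CPM at T65 day 0, without overlap (log2 fold change 0.40 ± 0.12, adjusted p = 0.306 by edgeR). LHY (LOC_Os08g06110), the MYB factor of the morning loop, had 669, 691 and 633 CPM at T65 day 4 and 959, 787 and 929 CPM at T65 day 0. All day 4 libraries were below all day 0 libraries, yet the difference did not pass (log2 fold change -0.42 ± 0.12, adjusted p = 0.238 by edgeR). DESeq2 gave LHY an adjusted p of 0.0346. PRR1, the relative of Arabidopsis TOC1, overlapped between the groups, with 35.9 to 39.2 CPM at T65 day 4 and 33.6 to 40.9 CPM at T65 day 0, as did ELF3-1 and LUX of the evening complex.

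The later T65 days share the same day 0 libraries, so their values stand here side by side and are no separate test. PRR95 had 170.4 to 218 CPM at day 8 and 223 and 282 CPM at day 12. GI had 443 to 505 CPM at day 8 and 381 and 511 CPM at day 12. PRR73 had 329 to 363 CPM at day 8 and 325 and 363 CPM at day 12. All day 8 and day 12 libraries of these 3 genes lay above the day 0 libraries. The groups differ in day length as well as in days under it, and the sources used here do not state the hour of collection, so a shift in a daily rhythm and a change in its level cannot be told apart.

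**Figure D1:**
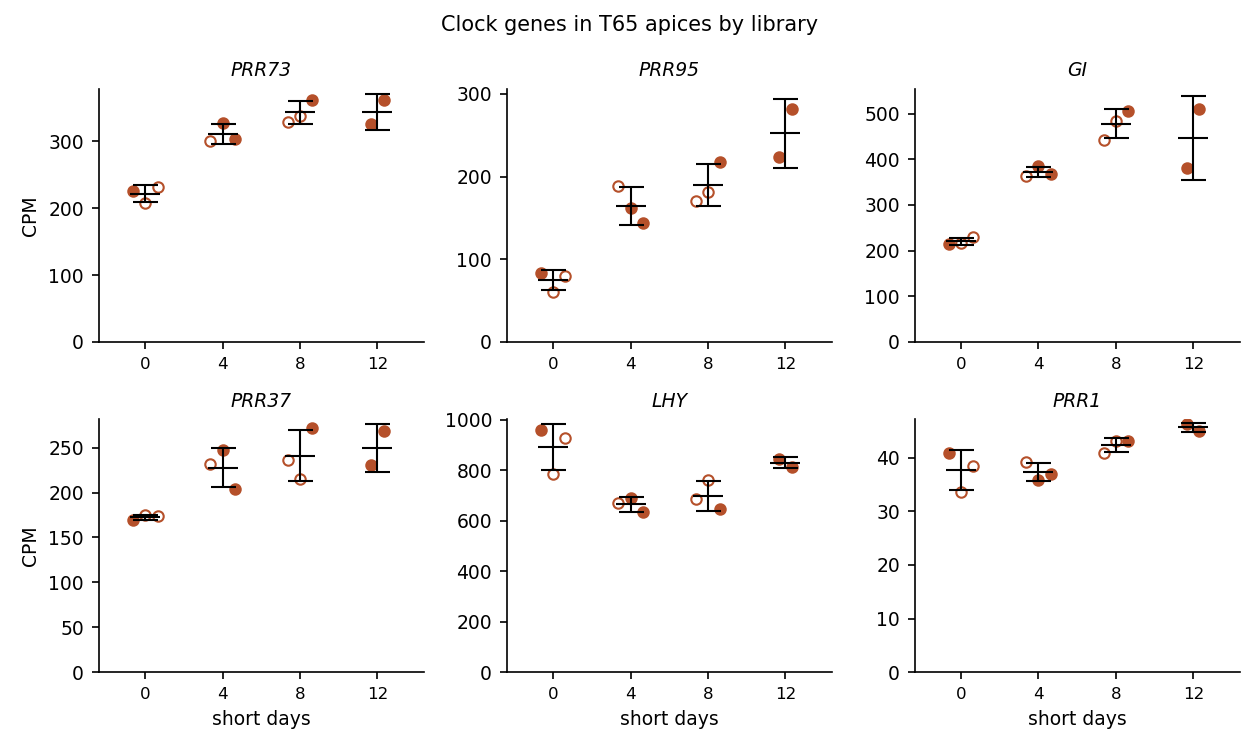
CPM of 6 clock genes in every T65 library (y axis) at 0, 4, 8 and 12 short days (x axis). Open points are libraries with the lower share of multi-aligned reads, filled points those with the higher share, and bars give the mean and SD. PRR73, PRR95 and GI lie higher at day 4 than at day 0 without overlap, PRR37 likewise without passing the test, LHY lies lower without passing it, and PRR1 overlaps.

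Outside the lists, 2 water channel genes were among the 26 that rose, named after their values were seen. TIP1-1 (LOC_Os03g05290), an aquaporin of the vacuolar membrane, had 170.5, 200.5 and 178 CPM in the T65 day 4 libraries, against 87.3, 88.8 and 91.8 CPM in the T65 day 0 libraries. The groups lay far apart, with a log2 fold change of 1.04 ± 0.14 (adjusted p = 0.00145 by edgeR), and the call held without each of the 6 libraries (adjusted p 0.00591 to 0.0197). PIP2-4 (LOC_Os07g26630), an aquaporin of the plasma membrane, had 49.4, 45.2 and 57.4 CPM in the T65 day 4 libraries, against 23.1, 29.4 and 19.8 CPM in the T65 day 0 libraries. Its log2 fold change was 1.08 ± 0.22 (adjusted p = 0.0466 by edgeR), and the call was lost without any one of the 6 libraries (adjusted p 0.0587 to 0.307). Related aquaporins can share reads, so both levels may be undercounted.

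The remaining 29 loci that passed are not paired with a symbol by the files or the gene table, and they are given by locus with no role. They include the 2 loci left out of the lists that rose. The strongest rises by p were those of LOC_Os03g18870 and LOC_Os11g34460. LOC_Os03g18870 had 14.6, 16.3 and 14.5 CPM in the T65 day 4 libraries, against 2.09, 3.61 and 2.82 CPM in the T65 day 0 libraries (log2 fold change 2.44 ± 0.22, adjusted p = 6.1e-06 by edgeR). LOC_Os11g34460 had 20.6, 16.94 and 15.0 CPM in the T65 day 4 libraries, against 5.42, 4.101 and 5.80 CPM in the T65 day 0 libraries (log2 fold change 1.77 ± 0.16, adjusted p = 6.1e-06 by edgeR). Both kept the call without each of the 6 libraries. For LOC_Os03g18870 the log2 fold change was 2.19 within the lower share, from T65 day 4 replicate 1 against T65 day 0 replicates 2 and 3. It was 2.885 within the higher share, from T65 day 4 replicates 2 and 3 against T65 day 0 replicate 1. For LOC_Os11g34460 the log2 fold change was 2.044 within the lower share and 1.565 within the higher share, from the same libraries.

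Of the genes that fell, LOC_Os02g46030 had 8.64, 10.7 and 8.58 CPM in the T65 day 4 libraries, against 24.3, 20.9 and 27.7 CPM in the T65 day 0 libraries. The day 4 libraries lay far below those of day 0 (log2 fold change -1.39 ± 0.19, adjusted p = 0.00114 by edgeR), and the call held without each library. LOC_Os01g48930 had 103, 95.1 and 83.4 CPM in the T65 day 4 libraries, against 143, 109.9 and 129 CPM in the T65 day 0 libraries. Its fall was small (log2 fold change -0.44 ± 0.09, adjusted p = 0.045 by edgeR) and was lost without T65 day 4 replicate 2 (adjusted p = 0.212) or 3 (0.281), without T65 day 0 replicate 1 (0.347) or 3 (0.172), and with the multi-aligned share as a term (0.0667).

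The inflorescence identity genes, which mark the change from leaf to panicle production, did not pass at T65 day 4 (0 of 4). OsMADS18 (LOC_Os07g41370) had 38.8, 42.8 and 37.4 CPM in the T65 day 4 libraries, against 29.6, 24.9 and 38.3 CPM in the T65 day 0 libraries. One day 0 library lay above the lowest day 4 library, and the log2 fold change was 0.36 ± 0.18, with a 95% interval of -0.01 to 0.72 (adjusted p = 0.568 by edgeR). OsMADS14 (LOC_Os03g54160) had 22 counts in the 3 libraries of T65 day 4 and 16 in the 3 of T65 day 0, OsMADS15 (LOC_Os07g01820) had 10 and 2 counts and OsMADS34 (LOC_Os03g54170) 1 and 2 counts, in the same order. OsMADS15 was higher in every T65 day 4 library without overlap, at a log2 fold change of 2.34 ± 1.76 with a 95% interval of -1.33 to 6.01 (adjusted p = 0.693 by edgeR). The interval for OsMADS14 ran from -0.73 to 2.11 on the log2 scale.

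PINE1 (LOC_Os12g42250) had 80.7, 97.1 and 82.6 CPM in the T65 day 4 libraries, against 115, 110.5 and 138 CPM in the T65 day 0 libraries. The groups did not overlap, but the difference did not pass (log2 fold change -0.48 ± 0.24, 95% interval -0.97 to 0.01, adjusted p = 0.565 by edgeR), and lower values without overlap were seen in 9.18% of all genes tested. At day 8 PINE1 had 58.9 to 77.1 CPM and at day 12 it had 42.3 and 33.4 CPM, against the same T65 day 0 libraries. The day 4 libraries lay between those of day 0 and day 8 in level.

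**Figure D2:**
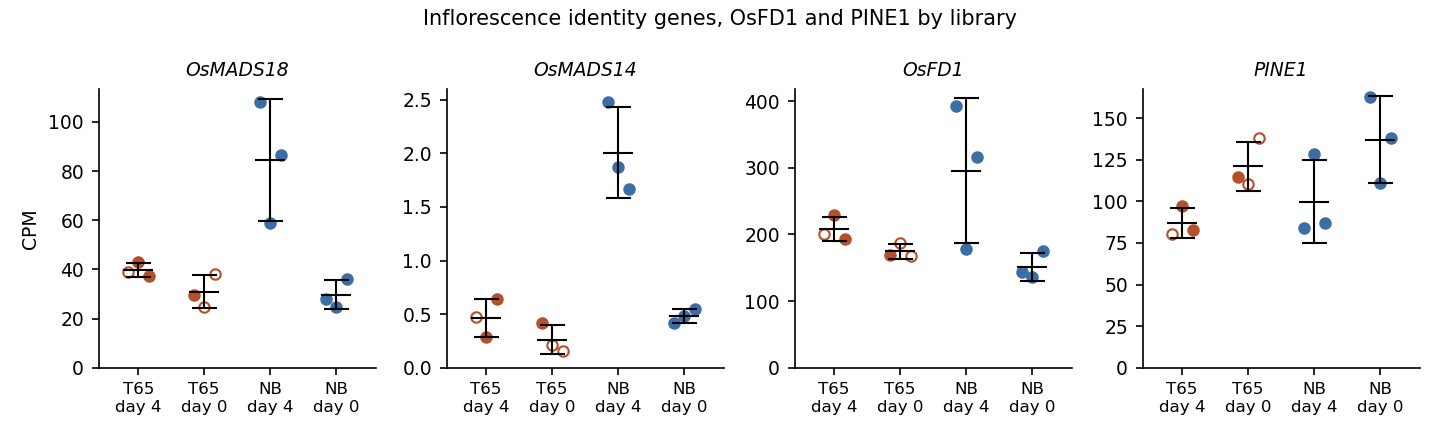
CPM (y axis) of OsMADS18, OsMADS14, OsFD1 and PINE1 in each library of T65 day 4, T65 day 0, NB day 4 and NB day 0 (x axis), with the mean and SD. Open points are libraries with the lower share of multi-aligned reads. In T65 none of the 4 passed, while OsMADS18 lies at 37.4 to 42.8 CPM at T65 day 4 and at 58.8 to 108 CPM at NB day 4.

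Hd3a transcripts were not detected in these apices. Hd3a (LOC_Os06g06320) had 0 counts in all libraries of both groups, which allows up to 0.17 to 0.209 CPM in a T65 day 4 library and 0.126 to 0.209 CPM in a T65 day 0 library (3 counts of its total, counting error only). Ehd1, which activates Hd3a in leaves, had 0 counts in either group.

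The partners of florigen at the apex were present and did not pass. OsFD1 (LOC_Os09g36910), the bZIP partner, had 201, 229 and 194 CPM at T65 day 4 and 169.8, 188 and 167 CPM at T65 day 0 (log2 fold change 0.25 ± 0.19, adjusted p = 0.691 by edgeR). GF14b (LOC_Os04g38870), a 14-3-3 protein, had 200.1, 193 and 205 CPM at T65 day 4 and 159.6, 168 and 158 CPM at T65 day 0. Both genes were higher in every day 4 library, and for GF14b the log2 fold change was 0.30 ± 0.08 with an adjusted p of 0.232 by edgeR. GF14c (LOC_Os08g33370), another 14-3-3 protein, had 678 to 785 CPM at T65 day 4 and 670.2 to 723 CPM at T65 day 0, with overlap. Of the florigen relatives, FTL1 (LOC_Os01g11940) had 5 counts at T65 day 4 and 7 at T65 day 0, and RCN2 (LOC_Os02g32950), a relative of the Arabidopsis flowering repressor TFL1, had 19 and 9.

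In the other flowering lists no gene passed in T65. The SPL genes encode transcription factors of which several shape panicle branching, and 15 were tested, with a median log2 fold change of -0.03. OsSPL14 (LOC_Os08g39890), a regulator of plant architecture, had 462, 470.2 and 505 CPM at T65 day 4 and 309.5, 335 and 352 CPM at T65 day 0, without overlap (log2 fold change 0.53 ± 0.18, adjusted p = 0.409 by edgeR). OsSPL14 passed where only the 6 T65 libraries were fitted (adjusted p = 0.0238). OsSPL13 (LOC_Os07g32170) had 305 to 313 CPM at T65 day 4 and 246 to 276 CPM at T65 day 0 (adjusted p = 0.703 by edgeR). Over the list, 2 SPL genes were higher and 3 lower without overlap, where 20.2% of all genes tested did not overlap and 9.18% were lower.

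Among 9 panicle and spikelet meristem genes tested, the median log2 fold change was 0.28. TAW1 (LOC_Os10g33780), which keeps branch meristems from becoming spikelets, had 98.8 to 120.4 CPM at T65 day 4 and 89.2 to 121 CPM at T65 day 0. SNB, an AP2-like factor of the spikelet meristem, had 89.4 to 115 CPM at T65 day 4 and 76.4 to 96.0 CPM at T65 day 0. The 5 MADS-box genes of the SVP-like and SOC1-like groups had a median of 0.05, the 8 day-length genes -0.06, and the 4 floral organ genes 0.06. The 9 meristem homeobox and size genes had a median of 0.00 and the 6 YABBY genes, which act in leaf development, 0.00.

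Growth and hormone genes did not pass either. Of 12 cell division genes tested 8 had a negative log2 fold change in T65, with a median of -0.16 and a lowest value of -0.33. MCM4 (LOC_Os01g36390), a subunit of the replicative helicase and the gene with that lowest fold change, had 87.2, 85.5 and 104.7 CPM at T65 day 4 and 122, 135 and 91.5 CPM at T65 day 0. The groups overlapped through T65 day 0 replicate 3, and the adjusted p was 0.448 by edgeR. CDKB2-1, a mitotic kinase, had 341 to 368 CPM at T65 day 4 and 307 to 357 CPM at T65 day 0, and PCNA, the replication clamp, had 239.7 to 295 CPM at T65 day 4 and 223 to 323 CPM at T65 day 0. The median was 0.00 over 10 gibberellin genes, 0.13 over 14 cytokinin genes, -0.02 over 7 auxin genes, 0.02 over 6 primary wall cellulose synthases and 0.32 over 3 secondary wall cellulose synthases, and 0.03 over 2 Polycomb genes. Of the sugar starvation list, 2 amylase genes were too low to be tested, and the locus left out for its unchecked name rose, at 1.30, 1.37 and 0.922 CPM at T65 day 4 and 0.209, 0.141 and 0.107 CPM at T65 day 0 (log2 fold change 2.89 ± 0.53, adjusted p = 0.0212 by edgeR).

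Chlorophyll-binding genes, the markers of green leaf, were higher in the T65 day 4 libraries without passing. CAB2R (LOC_Os01g41710) had 30.3, 40.0 and 14.6 CPM at T65 day 4 and 11.8, 7.78 and 9.05 CPM at T65 day 0 (log2 fold change 1.56 ± 0.49, adjusted p = 0.347 by edgeR). LHCB-b (LOC_Os03g39610) had 49.0, 51.4 and 27.2 CPM at T65 day 4 and 25.4, 16.4 and 25.7 CPM at T65 day 0 (log2 fold change 0.91 ± 0.36, adjusted p = 0.470 by edgeR). Of the 4 genes, 3 were higher without overlap, as were 2517 of the 22839 genes tested, and RBCS2, a small subunit of Rubisco, stayed under 1 CPM in all 6 libraries. Their summed level was 59.3 to 114 CPM at T65 day 4 and 32.1 to 53.2 CPM at T65 day 0, with a median log2 fold change of 0.89, and these genes can share reads with near-identical copies. CAB2R passed where only the 6 T65 libraries were fitted (adjusted p = 0.0493). The part of leaf tissue in the changes above was not tested.

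HSP101 (LOC_Os05g44340), a chaperone that rescues aggregated proteins after heat, had 68.6, 80.6 and 56.5 CPM at T65 day 4 and 28.9, 40.7 and 30.7 CPM at T65 day 0. It was higher in every T65 day 4 library (log2 fold change 1.05 ± 0.27) but missed the threshold (adjusted p = 0.208 by edgeR), and with only the 6 T65 libraries in the fit it passed (adjusted p = 0.0179). The 3 heat shock genes tested had a median of 0.87 and a summed level of 59.0 to 84.3 CPM at T65 day 4 and 30.3 to 43.0 CPM at T65 day 0. The 5 jasmonate genes tested had a median of -0.13, with JAZ8, a repressor of jasmonate response, at 13.1 to 45.2 CPM at T65 day 4 and 16.3 to 27.2 CPM at T65 day 0. The part of heat in the results was not tested.

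**Figure D3:**
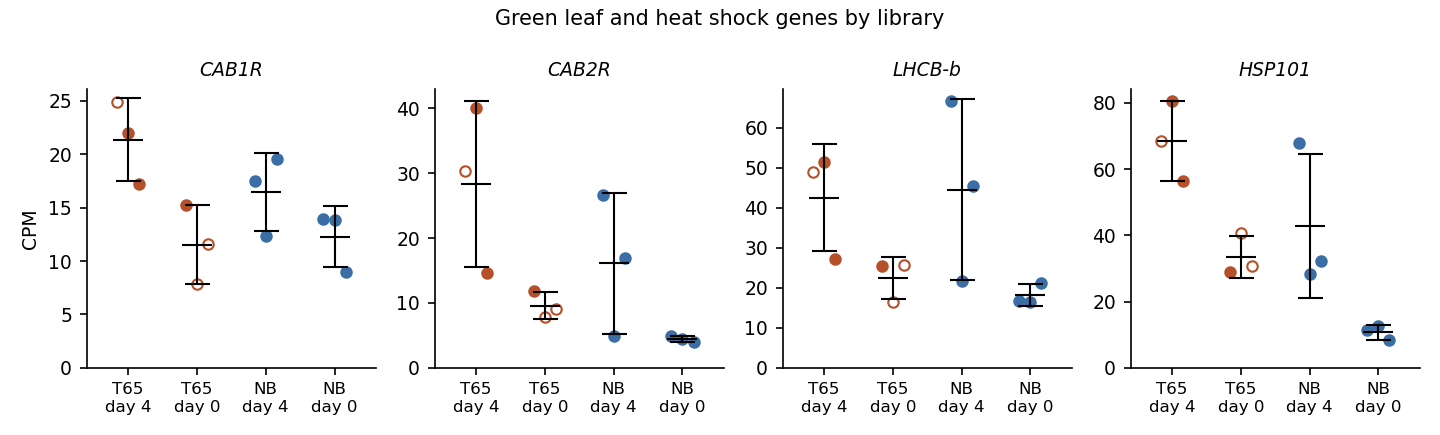
CPM (y axis) of CAB1R, CAB2R, LHCB-b and HSP101 in each library of T65 day 4, T65 day 0, NB day 4 and NB day 0 (x axis), with the mean and SD. Open points are libraries with the lower share of multi-aligned reads. In T65 all 4 genes are higher at day 4 without overlap and none passed the test.

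The same 4 days changed many more genes in NB, where 2292 rose (10.0% of genes tested) and 2339 fell (10.2%). All 6 NB libraries compared were of the higher multi-aligned share (9.70 to 10.9%), while both T65 groups mixed the shares. These counts and the interaction below thus compare cultivars that also differ in this mix. The NB count of 4631 was 2328 without NB day 4 replicate 1, 6982 without NB day 4 replicate 2, 2641 without NB day 0 replicate 2 and 3071 with only the libraries of the higher multi-aligned share. The median SE was much the same, at 0.154 in T65 and 0.153 in NB on the log2 scale. Both comparisons took their spread from the same fit, so these SEs do not compare the spread of T65 with that of NB. No libraries are shared between these comparisons. Of the 34 genes that passed in T65, 28 (82.4%) also passed in NB, which is 0.605% of the 4631 genes that passed in NB. Among them 27 moved the same way, 22 up and 5 down, and 1 moved the opposite way.

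The genes that rose in T65 had a median log2 fold change of 1.07 in T65 and 1.10 in NB, and those that fell had medians of -0.76 in T65 and -0.51 in NB. These genes were chosen for their change in T65, which can enlarge their T65 medians, so the medians are a description. For the 3 clock genes the difference between the cultivars did not pass. The log2 fold change of GI was 0.75 ± 0.12 in T65 and 0.76 ± 0.12 in NB, a difference of -0.01 with a 95% interval of -0.37 to 0.35. PRR73 differed by -0.12 (interval -0.36 to 0.12) and PRR95 by -0.45 (interval -0.97 to 0.07), and neither difference passed (adjusted p = 0.695 and 0.424 by edgeR).

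**Figure D4:**
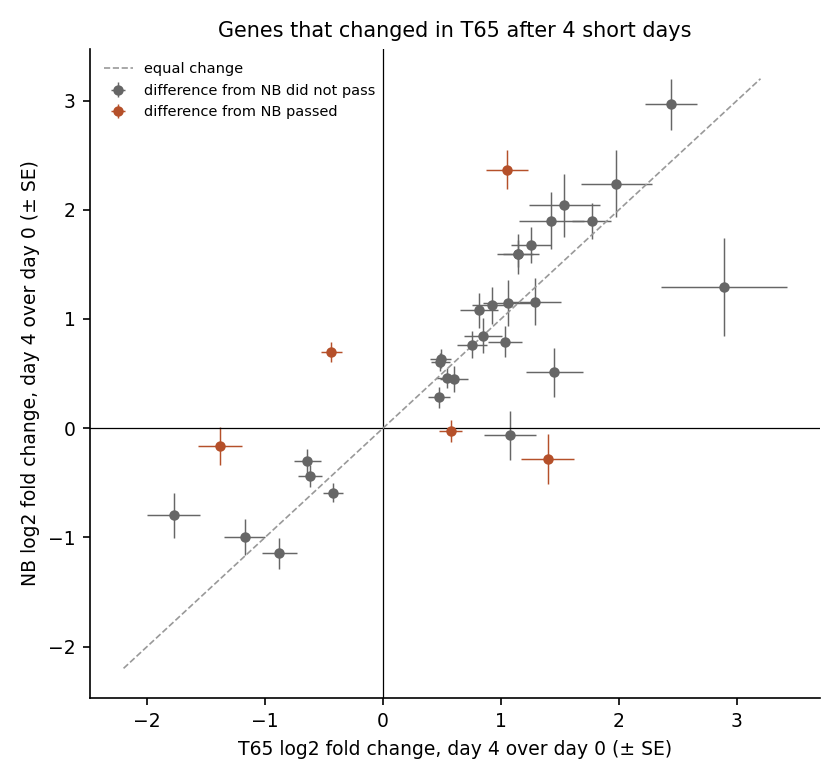
Log2 fold changes of day 4 over day 0 for the 34 genes that passed in T65, with T65 on the x axis and NB on the y axis. Bars are SE, the dashed line marks equal change, and red points are the 5 genes whose difference between cultivars passed. Most points lie near the line, and 1 red point lies at -0.44 in T65 and 0.70 in NB.

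The difference between the cultivars was tested as an interaction. It passed for 419 genes, 245 higher (1.07%) and 174 lower (0.762%) in T65 relative to NB. Of the 419, 395 passed in NB and 5 passed in T65. Genes that rose in NB, with a median log2 fold change of 0.58 there, had a median of 0.15 in T65, and genes that fell in NB, with a median of -0.45 there, had a median of -0.09 in T65. These medians belong to genes chosen for their change in NB and are a description. The count of 419 was 231, 53, 192 and 63 without T65 day 4 replicate 1, T65 day 4 replicate 3, T65 day 0 replicate 1 and T65 day 0 replicate 3. It was 178 and 1088 without NB day 4 replicate 1 and 2, and 272, 116 and 258 without NB day 0 replicate 1, 2 and 3. With the 16 libraries of the higher multi-aligned share alone it was 13. The balance of direction was not stable: lower genes outnumbered higher ones with only the groups compared (20 higher, 41 lower), with no filter on low counts (447 and 548) and in the higher share (4 and 9). They did so also without T65 day 4 replicate 3 (24 and 29), T65 day 0 replicate 3 (29 and 34), NB day 4 replicate 1 (81 and 97), NB day 4 replicate 2 (520 and 568) or NB day 0 replicate 2 (55 and 61).

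OsMADS18 was the inflorescence gene whose response differed. It had 39.7 ± 2.83 CPM at T65 day 4 and 30.9 ± 6.78 CPM at T65 day 0, and 84.5 ± 24.6 CPM at NB day 4 and 29.7 ± 5.93 CPM at NB day 0 (SD, n = 3 each). The log2 fold change was smaller in T65 than in NB by 1.15, as a difference of -1.15 ± 0.25 (adjusted p = 0.0226 by edgeR). Without T65 day 4 replicate 3, T65 day 0 replicate 3, NB day 4 replicate 1 or NB day 0 replicate 2 the difference no longer passed, and over the 12 fits that leave out 1 library the adjusted p ran from 0.00179 to 0.0878. Nor did the difference pass with only the groups compared (-1.175, adjusted p = 0.103 by edgeR). Within the higher multi-aligned share, where replicate 1 is the only T65 day 0 library, it was -1.085. For OsMADS14 the difference was -1.31 with an interval of -3.06 to 0.44 (adjusted p = 0.517 by edgeR), and for PINE1 it was -0.03 with an interval of -0.71 to 0.66 (adjusted p = 0.990 by edgeR).

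Of the 12 cell division genes 0 fell in T65 and 10 in NB, against 0.0350% and 10.2% of all genes tested. For 2 of the 12 the difference itself passed, as a higher value in T65, against 1.07% of all genes tested. CYCB2-1 (LOC_Os04g47580), a mitotic cyclin, had 125.6 ± 13.0 CPM at T65 day 4 and 118 ± 4.62 CPM at T65 day 0, and 89.4 ± 3.19 CPM at NB day 4 and 134 ± 10.1 CPM at NB day 0. The difference of log2 fold changes was 0.67 ± 0.12 (adjusted p = 0.00747 by edgeR) and passed without each of the 12 libraries. It did not pass with only the groups compared (0.64, adjusted p = 0.0578) or within the higher multi-aligned share (0.65, adjusted p = 0.308). CYCB2-2 (LOC_Os06g51110), a close relative, differed by 0.62 ± 0.13 (adjusted p = 0.0188 by edgeR), which did not hold without T65 day 4 replicate 3, T65 day 0 replicate 3, NB day 4 replicate 1 or NB day 0 replicate 2 (adjusted p up to 0.0721). With only the groups compared CYCB2-2 differed by 0.59 and did not pass (adjusted p = 0.103 by edgeR). For MCM4 the difference was 0.51 with an interval of 0.15 to 0.88 and did not pass (adjusted p = 0.147 by edgeR). The list's median log2 fold change was -0.16 in T65 and -0.57 in NB.

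**Figure D5:**
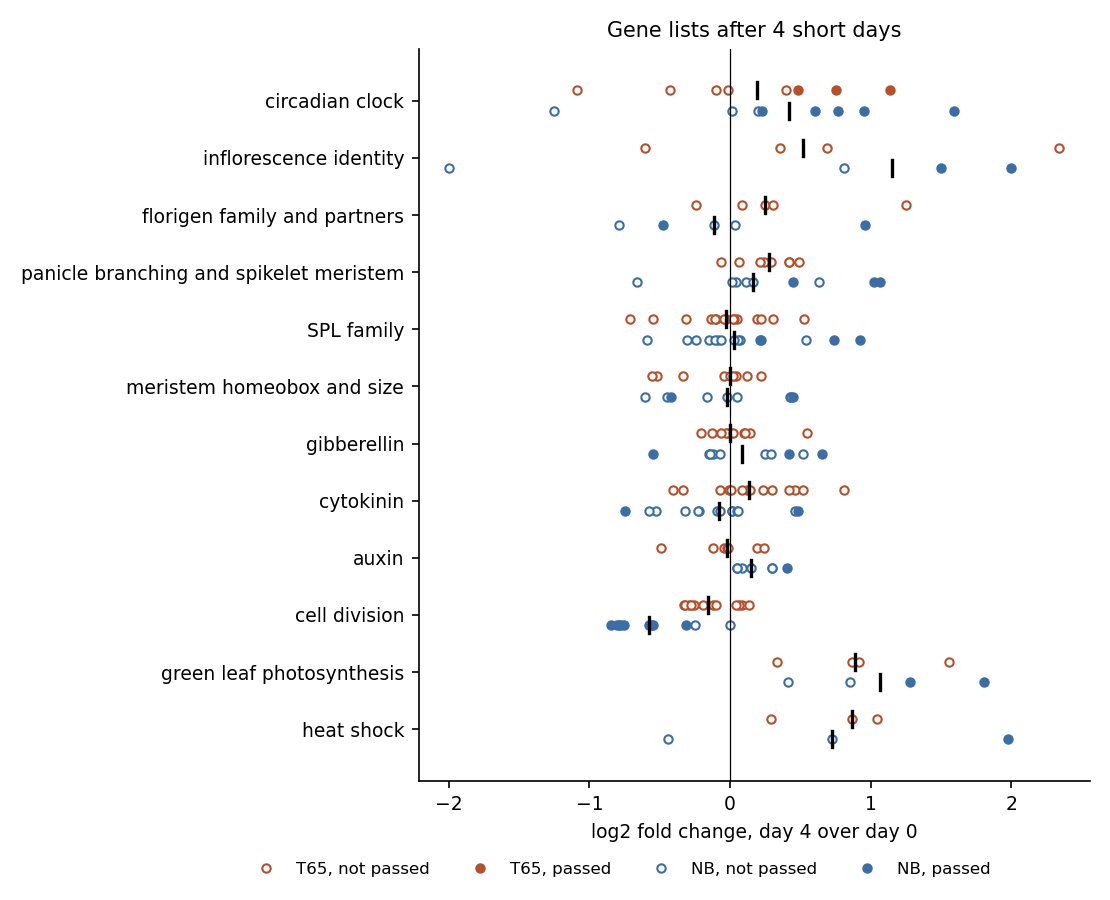
Log2 fold change of day 4 over day 0 (x axis) for the tested members of 12 of the 22 gene lists (y axis), T65 above NB in each list. Filled points passed the test within that cultivar, open points did not, and black bars are medians. In T65 the filled points are the 3 clock genes, while in NB filled points appear in each list drawn. Among the lists not drawn, no gene counted in them passed in NB in the SVP-like and SOC1-like, YABBY, internode elongation, secondary wall and Polycomb lists.

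Other single genes also responded differently in T65 and NB. GF14c had 742 ± 56.4 CPM at T65 day 4 and 699.5 ± 26.8 CPM at T65 day 0, and 559.6 ± 65.4 CPM at NB day 4 and 777 ± 27.2 CPM at NB day 0. Its difference of log2 fold changes was 0.56 ± 0.13 (adjusted p = 0.0263 by edgeR), and it no longer passed without T65 day 4 replicate 1 or 3, T65 day 0 replicate 3, NB day 4 replicate 1 or NB day 0 replicate 2 or 3 (adjusted p 0.0544 to 0.0949). With only the groups compared this difference was 0.53 and did not pass (adjusted p = 0.134 by edgeR). LOC_Os01g48930 was the gene that moved the opposite way, at 94.0 ± 10.1 CPM at T65 day 4 and 127 ± 16.6 CPM at T65 day 0, and 150.4 ± 9.31 CPM at NB day 4 and 92.7 ± 2.12 CPM at NB day 0. The difference was -1.14 ± 0.12 (adjusted p = 0.000107 by edgeR) and passed without each of the 12 libraries. LOC_Os02g46030, which fell in T65, had 26.0 ± 9.28 CPM at NB day 4 and 28.7 ± 1.32 CPM at NB day 0. For LOC_Os02g46030 the difference was -1.22 ± 0.26 (adjusted p = 0.0198 by edgeR) and was lost without T65 day 4 replicate 3, T65 day 0 replicate 3 or NB day 0 replicate 2 (adjusted p up to 0.0734). It did not pass with only the groups compared either (-1.25, adjusted p = 0.0804 by edgeR).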

How the data were processed

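Shoot apex RNA was sequenced in 23 count libraries. The authors deposited raw counts per gene with no normalization. Per the submitters' processing notes their tools included TopHat2, Bowtie2, HTSeq, R 3.1.0 and edgeR 3.6.4. No label or header names the annotation release or states whether counting used strand, which leaves reads of overlapping or antisense genes inseparable. Library sizes and tests exclude the 5 HTSeq summary lines (no gene, 4.72 to 5.51% relative to assigned reads), and merged runs count once. Counts of 55986 loci entered edgeR 4.0.16 (R 4.3.3, TMM, filterByExpr, glmQLFit, glmQLFTest) with all 8 groups in 1 model. The fit had 15 residual degrees of freedom and a biological coefficient of variation of 12.7%. It was also tried on data simulated with this same coefficient for every gene and no effect of the multi-aligned share. P-values were adjusted by Benjamini-Hochberg over 22839 genes at 0.05. SE is the size of the log2 fold change over the square root of F. The alternatives included DESeq2 1.42.0.

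Members and lists were chosen with earlier results of these data known. Of 209 list genes, 154 were kept because symbol, chromosome and position fitted a RefSeq table (ASM3414082v1) and 10, PINE1 and OsFD1 included, on a pairing given in earlier work on these data alone, their symbols not being in the table. The other 45 were left out of the list counts. Named were PINE1, the inflorescence identity genes, FTL1, OsFD1 and RCN2, list members that passed or else the highest in CPM, and, outside the lists, genes by p and by size of change, with up to 2 unannotated loci in each direction. A few further list members were named after their values were seen (OsSPL13, GF14c, MCM4, JAZ8, LHY, PRR37, PRR1 and Hd3a). Libraries of a group were not duplicates (chi-square per gene 5.70 to 30.4). One gene is not reported here.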

Additional observations from a re-analysis of the deposited data

Results flagged for a closer look

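The day 4 response differed between T65 and NB, by the interaction test, in 419 genes. Among the 140 list genes tested it differed in 8, against 1.07% higher and 0.762% lower of all 22839 genes tested, given here as the T65 minus NB difference of log2 fold changes with the edgeR adjusted p. OsMADS18 was at -1.15 (0.0226) and KS1, an early step of gibberellin synthesis, at -0.63 (0.0376). GF14c was at 0.56 (0.0263) and GID2, the F-box protein of gibberellin signalling, at 0.48 (0.0342). CYCB2-1 was at 0.67 (0.00747), CYCB2-2 at 0.62 (0.0188) and CESA8, a primary wall cellulose synthase, at 0.45 (0.0416). JAZ8 was at 1.98 (0.0368), with 28.3 ± 16.1 CPM at T65 day 4 and 22.9 ± 5.83 CPM at T65 day 0, and 13.1 ± 3.66 CPM at NB day 4 and 42.7 ± 12.25 CPM at NB day 0. In T65 itself none of these 8 passed. A locus entered for the florigen family and left out for its unchecked name was at 1.21 (0.0291). Of the loci that passed in T65, LOC_Os01g48930 was at -1.14 (0.000107) and LOC_Os02g46030 at -1.22 (0.0198). When each of 12 libraries was left out in turn, KS1 kept its call in 4 fits, GID2 in 4, CESA8 in 3 and JAZ8 in 4. With only the groups compared none of the 8 list genes passed (adjusted p 0.0578 to 0.158 by edgeR).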

How the results depend on the processing

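The 34 genes changed in T65 numbered 34 with RLE size factors and 31 with the multi-aligned share as a term. They became 97 with DESeq2, 513 with no filter on low counts, 132 with only the groups compared, 52 with the replicate block, 1 with only libraries of the higher share, 2 with only libraries of the lower share and 1 within the higher share with the spread pooled, the last chosen after seeing the data. Leaving out 1 library gave 14 to 21. The 419 genes whose response differed became 899 with DESeq2, 995 with no filter, 61 with only the groups compared, 13 with only libraries of the higher share, and 53 to 1088 when 1 library was left out. The 4631 genes changed in NB became 2328 to 6982 when 1 library was left out. With RLE size factors the 419 were 394, with the class term 399 and with the replicate block 596. The cause of these shifts was not tested. Comparisons within a share class set fewer T65 libraries against each other. The labels do not state that replicate numbers pair the T65 libraries, so the block result is given here alone. Deviations of same-numbered T65 libraries correlated at -0.40, -0.149 and -0.202. Each such pair joins a library of the lower share and a library of the higher share, so these correlations cannot decide on pairing. None of the 34 genes turned its direction under any alternative, but their lack of overlap largely fixes this in advance. For the difference between cultivars, direction was followed only in genes that passed among the 34, the list genes and the loci of smallest p. None of these turned. Direction was not followed in all 419 genes or in the genes that passed in NB. Of 3012 alternative values of single genes, 307 lost a call and 17 gained one. Many of these values belong to list genes with no call in the main fit, which had none to lose. A further 220 had no call in either fit and moved by more than the SE of the main fit. Of the 34 genes, 14 to 21 kept the call when 1 library was left out and 27 with the multi-aligned share as a term. With RLE size factors, DESeq2, no filter, only the groups compared or the replicate block, 33 or 34 kept it. With 3 libraries a group and a median SE of 0.154 on the log2 scale, small changes in T65 can be missed.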
